A study of Mus musculus with 6 samples.

Results

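The genes described here are 45 cytosolic and mitochondrial molecular chaperones and regulators of the heat-shock response, measured in whole retinas of wild-type and Wfs1-KO mice. They were taken by gene symbol from a counts table of 55376 genes, and all 45 were in the table and passed the filter on low counts. By role they were 8 HSP70 proteins, 3 HSP110 proteins, 2 HSP90 proteins, 8 HSP40 proteins, 3 small HSPs, 2 subunits of the mitochondrial chaperonin, 8 subunits of the CCT chaperonin, 9 co-chaperones and 2 heat-shock factors. Wfs1 encodes wolframin, a membrane protein of the endoplasmic reticulum whose loss causes Wolfram syndrome. The 3 Wfs1-KO mice carried a targeted Wfs1 allele that lacks exon 8, and the 3 WT mice were the controls, with 1 library per mouse at postnatal day 240. The sample labels give the strain of all 6 as C57x129, whereas the study's methods give a C57BL/6J background. Because whole retinas were sequenced, fewer cells of a type and less RNA per cell cannot be told apart in any value below.

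Chaperones bind unfolded or partly folded proteins and keep them from aggregating. HSP70 proteins hold short hydrophobic stretches in a cycle of ATP hydrolysis that HSP40 (J-domain) proteins start and that HSP110 proteins reset by exchanging the nucleotide, and HSP90 takes over clients such as kinases and steroid receptors with the help of co-chaperones. The CCT ring folds actin and tubulin in the cytosol, and Hspd1 with its lid Hspe1 does the corresponding work in the mitochondrial matrix. Heat-shock factor 1 (Hsf1) binds heat-shock elements, arrays of the unit GAA in alternating orientation, upstream of many of these genes when unfolded protein accumulates. In the retina these proteins serve photoreceptors, which renew their outer segments daily, and ganglion cells with long axons.

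The elements that Hsf1 recognises are shown first, since they are the sequence feature that the heat-shock genes are known to share. In RefSeq promoter windows (GRCm38.p6, from 250 bases before to 50 after a start site), 37 of the 45 members had an entry. No entry was used for Cct4, Hsf1, Hsp90aa1, Hsp90ab1, Hspa13, Hspa8, Hspa9 and St13. The 3-unit motif GAANNTTCNNGAA, searched on both strands, was in the windows of 5 of 37 members (13.5%) and of 179 of all 27025 genes with a window (0.662%). It was in the windows of none of the 59 other chaperone pathway genes that had an entry. The 5 members were Hspd1, Hspe1, Dnajb6, Hsph1 and Chordc1, and their sites are printed 5′ to 3′ with the matched bases in capitals.
Hspe1, chr1:55088053-55088082, plus strand: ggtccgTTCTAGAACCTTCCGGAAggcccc
Dnajb6, chr5:29735844-29735873, plus strand: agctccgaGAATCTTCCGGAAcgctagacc
Hsph1, chr5:149636279-149636308, minus strand: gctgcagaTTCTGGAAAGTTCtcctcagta
Chordc1, chr9:18292260-18292289, plus strand: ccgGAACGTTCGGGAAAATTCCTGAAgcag
Hspd1 and Hspe1 are neighbours transcribed in opposite directions, and the Hspe1 site is also the Hspd1 site read on the other strand. The Hspe1 line holds 2 overlapping matches, which begin 84 and 89 bases before the Hspe1 start, and the Chordc1 line holds 3 overlapping matches across its start site. The Hsph1 match lies 16 or 37 bases after the start, depending on which of the RefSeq starts is taken, and the Dnajb6 match lies 46 or 127 bases before it.

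The shorter 2-unit motif GAANNTTC was found for 15 of 37 members (40.5%), 6.78% of the other pathway genes and 9.04% of all genes with a window. The other 2-unit arrangement, TTCNNGAA, was found for 9 of 37 members (24.3%), 6.78% of the other pathway genes and 9.60% of all genes. The 3-unit motif contains both arrangements, so both counts include the 5 members above. The GC box GGGCGG was found for 35 of 37 members (94.6%), 69.5% of the other pathway genes and 38.2% of all genes. A gene was counted if any of its windows held the motif, and the 37 members had 52 windows. Hspa1a and Hspa1b, the stress-inducible HSP70 pair, carry the 2-unit motif 104 bases before the start, in promoters that match at 247 of 250 bases. Their 250 bases before the start are shown because the genes are read as a pair below, with the motif in capitals.
Hspa1a, chr17:34972157-34972406, minus strand: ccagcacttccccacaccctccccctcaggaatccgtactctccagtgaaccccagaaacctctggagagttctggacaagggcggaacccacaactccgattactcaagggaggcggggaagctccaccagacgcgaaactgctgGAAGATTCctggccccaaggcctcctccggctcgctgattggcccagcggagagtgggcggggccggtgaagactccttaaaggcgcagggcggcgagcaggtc
Hspa1b, chr17:34959239-34959488, minus strand: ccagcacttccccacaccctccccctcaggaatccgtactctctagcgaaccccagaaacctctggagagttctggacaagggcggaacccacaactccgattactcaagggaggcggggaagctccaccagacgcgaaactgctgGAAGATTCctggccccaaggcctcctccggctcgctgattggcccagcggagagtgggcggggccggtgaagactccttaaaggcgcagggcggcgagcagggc
A match is a description of the letters and not a measured binding site.

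Total counts per retina ranged from 17916885 to 101334381, and the members had from 86 to 172098 reads in a retina. Wfs1, the targeted gene, had 61.4 to 69.9 CPM (reads of a gene per library size, after TMM scaling) in the WT retinas and 9.63, 0.900 and 11.5 CPM in Wfs1-KO replicates 1, 2 and 3. The Wfs1-KO replicate 2 library stood apart, with a mean correlation of 0.918 to the other 5 libraries, which lay between 0.962 and 0.971. In that library the summed CPM of 10 retinal pigment epithelium markers was 312.9, against 32.2 to 107.9 in the other 5 retinas, that of 5 red blood cell markers was 479.9 against 12.3 to 41.2, and that of 9 leukocyte and microglia markers was 148.2 against 16.2 to 28.3. Lens markers summed to 14.7 against 2.38 to 5.54 and skeletal muscle markers to 11.7 against 5.24 to 6.58. The part of these markers in the chaperone values was not tested, and fold changes are therefore also given without Wfs1-KO replicate 2.

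Markers of the retinal cell types were summed in the same way. The summed CPM of the photoreceptor markers was 75970 to 84860 in WT and 75400, 62270 and 75420 in Wfs1-KO replicates 1 to 3, and that of 8 Mueller glia markers was 5390 to 5618 in WT and 4669, 4084 and 5060 in Wfs1-KO, so that all mutant retinas were below all WT retinas in both. Ganglion cell markers summed to 1103 to 1286 CPM in WT and 942.6, 1441 and 1063 in Wfs1-KO, and pigment epithelium markers to 72.5 to 107.9 in WT and 57.6, 312.9 and 32.2, with mutant replicates 1 and 3 below all WT retinas.

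In WT retinas the most abundant chaperone mRNAs per exon length were Hsp90aa1 with 495 ± 45.1 RPKM, Hspa8 with 399 ± 11.7 RPKM and Hsp90ab1 with 280 ± 12.5 RPKM (SD, n = 3). Hsp90aa1 is the inducible and Hsp90ab1 the constitutive cytosolic HSP90, and Hspa8 is the constitutive HSP70 (Hsc70). The next levels were well below these, with 130 RPKM for the immunophilin Fkbp4, 119 for Cct5 and 103 for Stip1, the adaptor that joins HSP70 to HSP90. The inducible HSP70 genes were lower, with 19.2 RPKM for Hspa1b and 10.9 for Hspa1a. At the low end were Hspa2 with 5.38 RPKM, the small HSPs Hspb1 with 4.72 and Hspb8 with 4.54, and the HSP70 co-chaperone Bag3 with 2.78. In all 3 Wfs1-KO retinas Hspa8 ranked 3rd of the 45, behind both HSP90 genes, against 2nd in the WT mean.

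**Figure D1:**
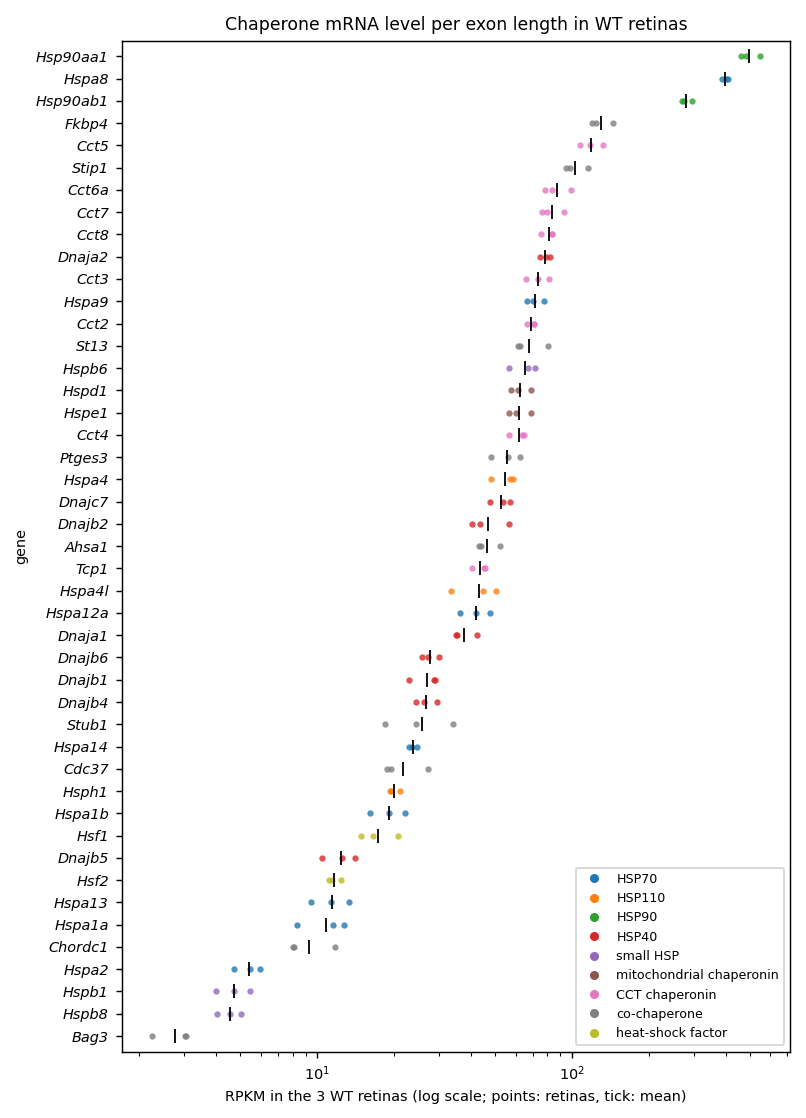
RPKM of the 45 chaperone genes in the 3 WT retinas on a log axis, ordered by mean and coloured by role; points are retinas and ticks are means. Hsp90aa1, Hspa8 and Hsp90ab1 stand above the rest, with means of 495, 399 and 280 RPKM, and Bag3 is lowest with 2.78.

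The summed RPKM of the 45 genes was 3157, 3153 and 2970 in WT replicates 1 to 3. It was 2505, 4073 and 2572 in Wfs1-KO replicates 1 to 3. Replicates 1 and 3 thus lay below every WT retina and replicate 2 above every one. For the 2 HSP90 genes the sums were 754, 821 and 752 RPKM in WT and 634, 1580 and 662 in Wfs1-KO, so that replicate 2 alone was high. For the 8 HSP70 genes they were 582, 573 and 594 in WT and 378, 481 and 400 in Wfs1-KO, which did not overlap. That separation came from Hspa8, since the other 7 summed to 173, 187 and 192 in WT and 174, 154 and 178 in Wfs1-KO, which overlap. The sum of all members but Hspa8 was 2747, 2766 and 2569 in WT and 2301, 3746 and 2350 in Wfs1-KO, the same order as with it.

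With all 6 retinas, 0 of the 45 chaperone genes had an adjusted p under 0.05 by edgeR (quasi-likelihood test, Benjamini-Hochberg adjustment), which called 2 of the 18547 genes tested (0.0108%). DESeq2 also called 0 of the 45, and 52 of all genes tested (0.280%). At an unadjusted p under 0.05 edgeR and DESeq2 each gave 5 members (11.1%), and edgeR gave 2.81% of all genes tested. The edgeR count was 1, Hspa2, without Wfs1-KO replicate 1 or without replicate 3. It was 3 without WT replicate 1 or without WT replicate 3, and 6 without WT replicate 2. At that threshold the share of all tested genes is not given for these fits or for DESeq2. Of the 5 members with all 6 retinas, Hspa8, Hsph1, Hspa1b and Dnajb1 were lower in Wfs1-KO, where 0.566% of all tested genes were. Hspa2 was higher, where 2.24% were. A log2 fold change below 0 was found for 32 of the 45 (71.1%) against 47.2% of all tested genes. The median log2 fold change was -0.09 over the members and 0.02 over all tested genes.

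Without Wfs1-KO replicate 2, Hspa8 fell in the mutant retinas and was the 1 member with an adjusted p under 0.05 by edgeR, which called 24 of the 19178 genes tested (0.125%). DESeq2 called 2 members in these 5 retinas, Hspa8 and Hsph1 (0.490% of all genes tested). At an unadjusted p under 0.05 edgeR gave 9 members (20.0%) and 5.19% of all genes tested. The 8 lower ones were Hspa8, Hspa1b, Hsph1, Hsp90ab1, Dnajb1, Hspe1, Stip1 and Ahsa1, against a background of 2.39%, and the higher one was again Hspa2, against 2.80%. A log2 fold change below 0 was found for 41 of the 45 (91.1%) against 50.1% of all tested genes, and the median was -0.21 against -0.00038. In the same fit the median was -0.23 over 13 photoreceptor markers (3 with an unadjusted p under 0.05, lower), -0.27 over 9 ganglion cell markers (3 lower), -0.78 over 10 pigment epithelium markers (5 lower) and -0.12 over 8 Mueller glia markers (2 lower), and the part of these cell types in the chaperone values was not tested. The 45 genes are abundant, so the same share was taken among the 11718 tested genes whose WT mean CPM was at least that of the lowest member, 4.87 CPM, and it was 55.0% both with and without that retina. Among genes of at least 50 CPM it was 62.5% with all retinas, against 26 of 34 members (76.5%), and 54.5% without replicate 2, against 32 of 34 (94.1%). The members without a negative value were Hspa2, Hspa12a, Dnajb6 and Hsf2. With the smaller spread of 5 retinas, the common dispersion was 0.0322 against 0.128 with all 6.

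**Figure D2:**
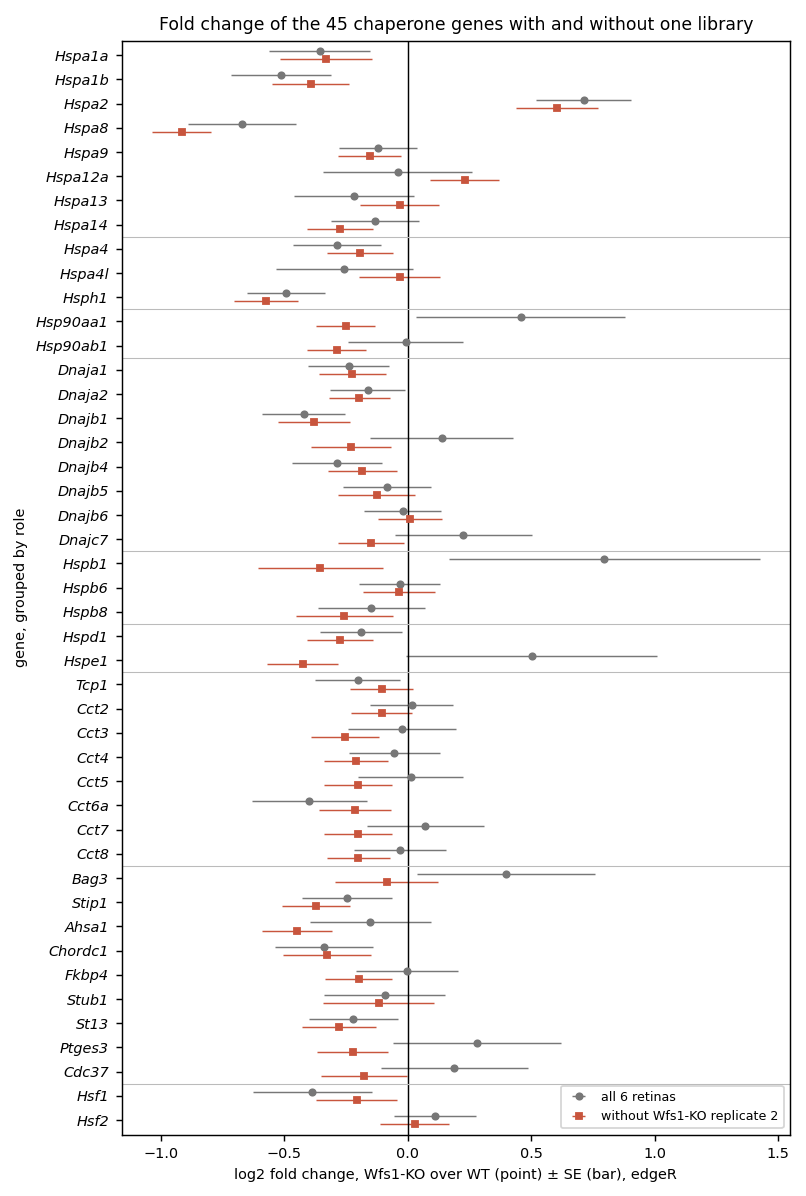
Log2 fold change of Wfs1-KO over WT for the 45 genes, grouped by role, from edgeR with all 6 retinas (grey circles) and without Wfs1-KO replicate 2 (red squares); bars are 1 SE. Without that retina 41 of 45 points lie below 0, with Hspa8 at -0.92 and Hspa2 at 0.61 as the extremes.

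Seen retina by retina, 40 of the 45 members were below their WT mean in Wfs1-KO replicate 1 and 40 in replicate 3, against 24 in replicate 2. About the same number of all tested genes lay on either side, with 49.5%, 50.1% and 50.2% below the WT mean in replicates 1, 2 and 3. In replicates 1 and 3 together, 37 members were below the WT mean in both (82.2%) against 36.0% of all tested genes. For 23 members both of these retinas were below all 3 WT retinas (11.2% of tested genes), and for 2 members, Hspa2 and Hspa12a, both were above (11.4%). All 3 Wfs1-KO retinas were below all 3 WT retinas for 7 members (3.94% of tested genes), namely Hspa8, Hspa1b, Hsph1, Dnaja1, Dnaja2, Dnajb1 and Chordc1. All 3 were above for Hspa2 (5.01% of tested genes). Wfs1-KO replicate 2 was the highest of the 6 retinas for 20 members and the lowest for 13, against 38.4% and 36.8% of all tested genes.

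**Figure D3:**
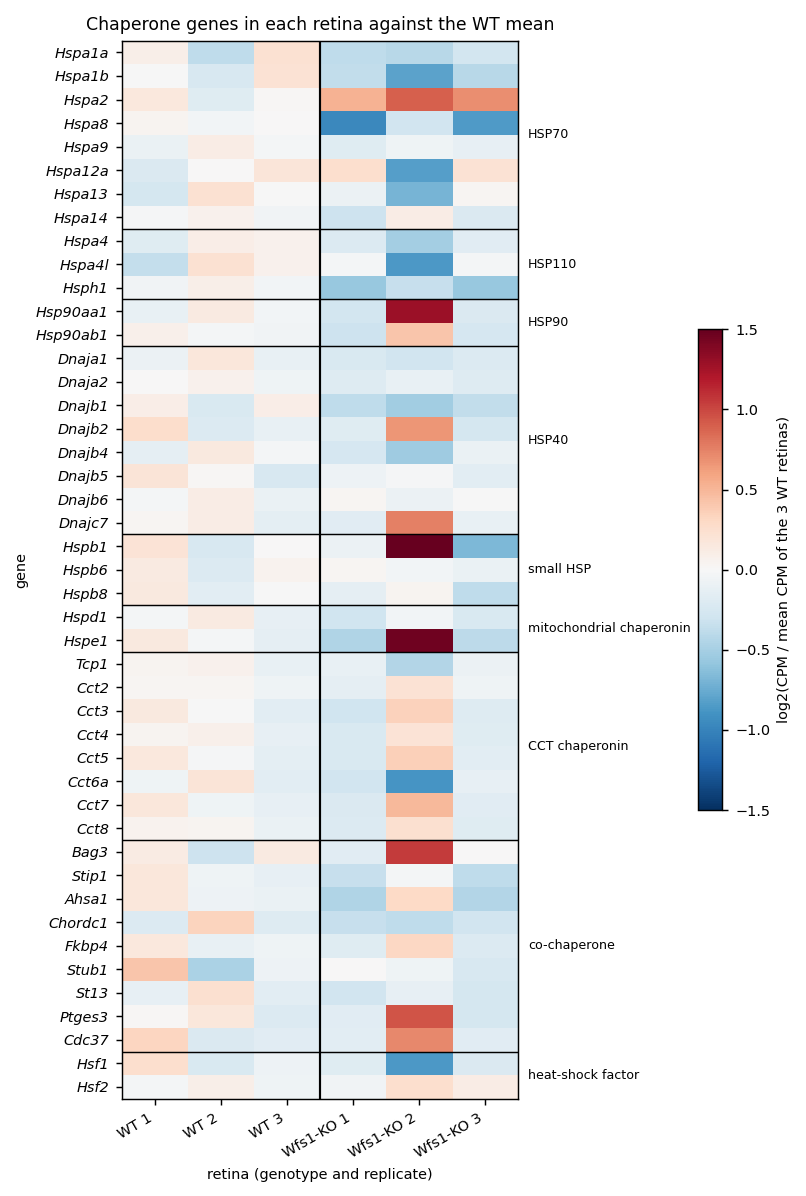
Each row is a chaperone gene and each column a retina; colour is log2 of the CPM over the mean CPM of the 3 WT retinas, cut at 1.5 in either direction. Wfs1-KO replicates 1 and 3 are mostly blue (40 of 45 genes below the WT mean in each), while replicate 2 holds both strong red (Hspb1, Hspe1, Hsp90aa1) and strong blue.

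Hspa8 (ENSMUSG00000015656.17, chromosome 9 of mm10, 40800984 to 40805200, plus strand) was the HSP70 gene furthest below WT. It had 981, 925 and 961 CPM in WT replicates 1 to 3 and 488, 783 and 529 CPM in Wfs1-KO replicates 1 to 3. Every mutant retina was below every WT retina, and replicate 2 lay nearest to WT. The means were 956 ± 28.1 and 600 ± 160.0 CPM (SD, n = 3 each). The log2 fold change was -0.67 (SE 0.22, adjusted p = 0.979 by edgeR). Without Wfs1-KO replicate 2 it was -0.92 (SE 0.12, adjusted p = 0.0152 by the same test), 47.0% lower in mutant retinas, and DESeq2 gave an adjusted p of 3.29e-08. Of the 50-base words in its transcripts 38.6% also occur in other genes, most of them in the copy Gm15459, to which 0 to 0.0908 CPM were assigned. Within 2 Mb of Hspa8, 4 of 21 tested genes (19%) had an unadjusted p under 0.05 by edgeR without Wfs1-KO replicate 2. This was against 5.19% of all tested genes, and 0 to 12.1% around the other named members. Of the 4, Gm48284 and 1700063D05Rik had at most 0.545 and 0.813 CPM in a retina. Tecta, 1529 kb away, was the other gene there past the adjusted threshold. It had 0.241, 0.210 and 0.227 CPM in WT and 2.59, 2.37 and 1.39 CPM in Wfs1-KO retinas. Whether these neighbours bear on the Hspa8 value was not tested.

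Hspa1a and Hspa1b, whose mRNAs rise on heat shock and are rare otherwise, lie next to each other on chromosome 17 (Hspa1a 34969190 to 34972156, Hspa1b 34956436 to 34959238, both on the minus strand). Hspa1b had 53.7, 45.3 and 62.2 CPM in WT and 41.7, 30.9 and 40.3 CPM in Wfs1-KO retinas. All mutant values were below all WT values, with a log2 fold change of -0.51 (SE 0.20, adjusted p = 0.979 by edgeR) and -0.39 (SE 0.16, adjusted p = 0.862) without replicate 2. Hspa1a had 34.2, 24.7 and 37.9 CPM in WT and 24.8, 24.2 and 26.6 CPM in Wfs1-KO retinas, so that WT replicate 2 lay within the mutant range. Its log2 fold change was -0.36 (SE 0.21, adjusted p = 0.979 by edgeR), and -0.33 (SE 0.19, adjusted p = 0.966) without replicate 2. The promoters of the pair, printed above, differ at 3 of 250 bases, and their transcripts share 58.8% and 62.3% of their 50-base words with each other, so the division of reads between them is uncertain. Hspa1a also overlaps an antisense gene, Gm20481, over 19.0% of its exon bases, and whether the counting used strand is not given in the sources used here.

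Hspa2, an HSP70 best known from the testis, went the other way. It had 15.8, 12.5 and 14.4 CPM in WT and 20.4, 26.5 and 23.2 CPM in Wfs1-KO retinas. The genotypes did not overlap, and the log2 fold change was 0.71 (SE 0.19, adjusted p = 0.979 by edgeR) with all retinas and 0.61 (SE 0.17, adjusted p = 0.505) without replicate 2. None of its 50-base words occur in another gene. The other HSP70 genes were the mitochondrial Hspa9, the ribosome-associated Hspa14, Hspa12a and Hspa13. Their log2 fold changes without replicate 2 ranged from -0.27 for Hspa14 to 0.23 for Hspa12a, and none had an unadjusted p under 0.05.

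Among the HSP110 proteins, the nucleotide exchange factors of HSP70, Hsph1 showed the greatest difference. It had 81.2, 89.4 and 82.2 CPM in WT and 56.7, 66.3 and 56.9 CPM in Wfs1-KO retinas. The mutant values were all lower, with a log2 fold change of -0.49 (SE 0.16, adjusted p = 0.979 by edgeR). Without replicate 2 it was -0.58 (SE 0.13, adjusted p = 0.291 by edgeR and 0.0194 by DESeq2), 32.9% lower. Hsph1 is 1 of the 5 members with the 3-unit motif shown above. Hspa4, the most abundant HSP110 gene per length, had 223, 270 and 264 CPM in WT and 219, 177 and 224 CPM in Wfs1-KO retinas. Its ranges overlapped, with a log2 fold change of -0.29 (SE 0.18, adjusted p = 0.979 by edgeR), and -0.19 (SE 0.13, adjusted p = 0.968) without replicate 2. Hspa4l had -0.26 with all retinas and -0.03 without replicate 2.

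Both HSP90 genes were highest in Wfs1-KO replicate 2. Hsp90aa1 had 1554, 1846 and 1625 CPM in WT and 1381, 4075 and 1443 CPM in Wfs1-KO retinas. Wfs1-KO replicate 2 was 2.43 times the WT mean, while the other mutant retinas lay below all 3 WT retinas. The log2 fold change was accordingly 0.46 (SE 0.42, adjusted p = 0.979 by edgeR) with all retinas and -0.25 (SE 0.12, adjusted p = 0.962) without that library. Hsp90ab1 had 742, 693 and 683 CPM in WT and 568, 945 and 594 CPM in Wfs1-KO retinas. Mutant replicates 1 and 3 were again below all WT retinas, and the log2 fold change was -0.0073 (SE 0.23, adjusted p = 0.998 by edgeR) and -0.29 (SE 0.12, adjusted p = 0.880) without it. For Hsp90aa1 47.5% of 50-base words occur in other genes, mostly in the copy Gm12346, which had 3.29 to 4.96 CPM in 5 retinas and 9.97 CPM in Wfs1-KO replicate 2.

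**Figure D4:**
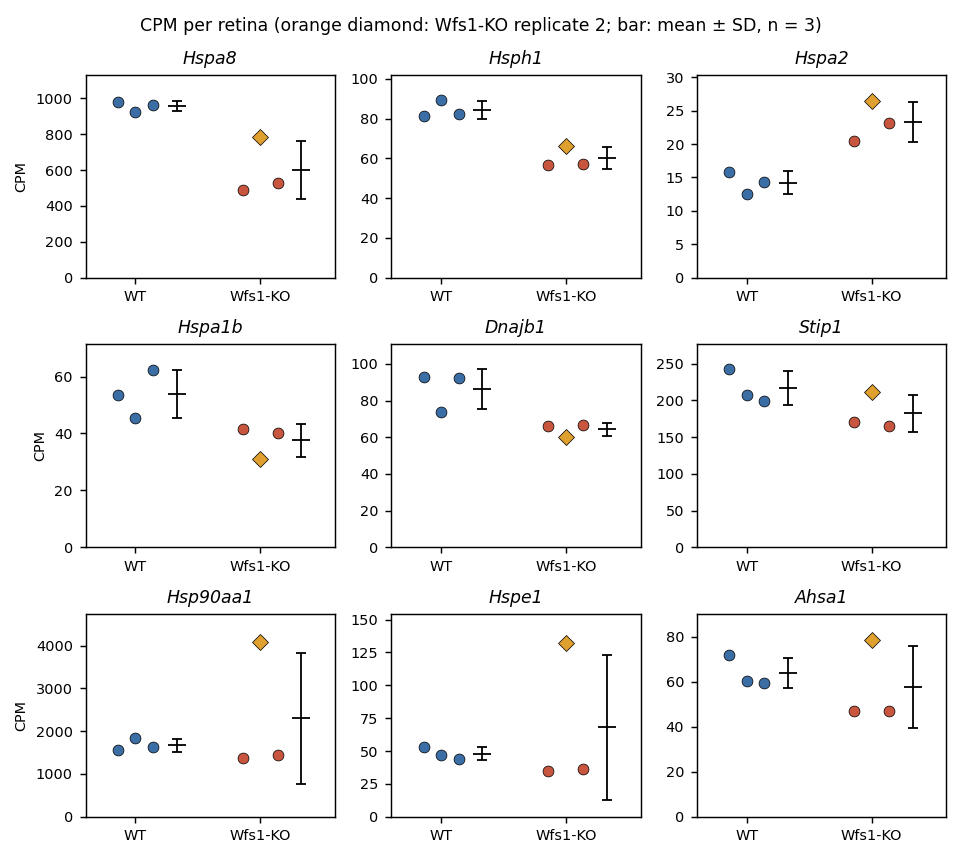
CPM of 9 chaperone genes in each retina, with WT in blue, Wfs1-KO in red and Wfs1-KO replicate 2 as an orange diamond; bars are mean ± SD of the 3 retinas and every axis starts at 0. Hspa8, Hsph1, Hspa1b and Dnajb1 are lower and Hspa2 higher in all 3 mutant retinas, while Hsp90aa1, Hspe1 and Ahsa1 are highest in Wfs1-KO replicate 2 and lowest in the other mutant retinas.

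The 8 HSP40 proteins deliver clients to HSP70 and start its ATP hydrolysis. Of these, 3 had mutant values below all WT values, against 3.94% of all tested genes. Dnajb1, the heat-inducible partner of Hspa1a and Hspa8, had 92.6, 73.5 and 92.3 CPM in WT and 66.3, 60.2 and 66.5 CPM in Wfs1-KO retinas. Its log2 fold change was -0.42 (SE 0.17, adjusted p = 0.979 by edgeR), and -0.38 (SE 0.15, adjusted p = 0.825) without replicate 2. The 3 mutant retinas lay closer together than the 3 WT retinas, with SDs of 3.57 and 10.9 CPM. Dnaja1 had 205, 245 and 202 CPM in WT and 185, 179 and 189 CPM in Wfs1-KO retinas, a log2 fold change of -0.24 (SE 0.16). Dnaja2 had 230, 239 and 219 CPM in WT and 201, 213 and 201 CPM in Wfs1-KO retinas, a log2 fold change of -0.16 (SE 0.15). Both differences were between 1 and 2 SE, and the adjusted p of both was 0.979 by edgeR. Without replicate 2 the log2 fold changes were -0.22 (SE 0.14) and -0.20 (SE 0.12). Over all 8, log2 fold changes without replicate 2 ranged from -0.38 for Dnajb1 to 0.01 for Dnajb6. Of the 8, 7 were below 0, against 50.1% of all tested genes. Dnajb6 is the member nearest to Wfs1 on chromosome 5, at 7.23 Mb, and the other members on that chromosome lie at least 79.4 Mb away.

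The small HSPs, which hold unfolded protein without ATP, were represented by Hspb1, Hspb6 and Hspb8. Hspb6, the most abundant per length, had 97.5, 77.3 and 91.8 CPM in WT and 90.8, 86.7 and 83.2 CPM in Wfs1-KO retinas. The mutant values lay within the WT range, with a log2 fold change of -0.03 (SE 0.16, adjusted p = 0.985 by edgeR), and -0.04 (SE 0.14) without replicate 2. Hspb1 had 4.12 to 5.60 CPM in WT and 4.56, 17.8 and 3.04 CPM in Wfs1-KO retinas, so that replicate 2 was 3.66 times the WT mean. This was the highest such ratio among the 45 genes in that retina, and the log2 fold change was 0.80 (SE 0.63) with it and -0.35 (SE 0.25) without it. Hspb1 shares 48.8% of its 50-base words with the copy Hsp25-ps1, which had 0 to 0.237 CPM.

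The mitochondrial chaperonin pair gave unequal values. Hspd1, the barrel subunit, had 149, 167 and 139 CPM in WT and 123, 148 and 129 CPM in Wfs1-KO retinas. Its log2 fold change was -0.19 (SE 0.17, adjusted p = 0.979 by edgeR) with all retinas and -0.27 (SE 0.13, adjusted p = 0.963) without replicate 2. Hspe1, the lid, had 53.2, 46.7 and 43.7 CPM in WT and 35.1, 132 and 36.6 CPM in Wfs1-KO retinas. Wfs1-KO replicate 2 stood at 2.76 times the WT mean, and the other mutant retinas were below all WT retinas. The log2 fold change of Hspe1 was 0.50 (SE 0.51, adjusted p = 0.979 by edgeR) with that library and -0.43 (SE 0.14, adjusted p = 0.719) without it.

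All 8 subunits of the CCT chaperonin had a log2 fold change below 0 without Wfs1-KO replicate 2, in a narrow range from -0.26 for Cct3 to -0.10 for Cct2. In that fit 50.1% of all tested genes were below 0, and 54.5% of those with a WT mean of at least 50 CPM. None of the 8 had an unadjusted p under 0.05. With all 6 retinas 5 of the 8 were below 0, against 47.2% of all tested genes. Replicate 2 was the highest retina for 6 subunits and the lowest for Tcp1 and Cct6a. Cct5, the most abundant subunit per length, had 246, 217 and 198 CPM in WT and 189, 282 and 197 CPM in Wfs1-KO retinas. Its log2 fold change was 0.01 (SE 0.21, adjusted p = 0.995 by edgeR), and -0.20 (SE 0.14, adjusted p = 0.968) without replicate 2.

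Among the 9 co-chaperones, Ahsa1, Stip1 and Chordc1 had the lowest log2 fold changes once replicate 2 was left out. Ahsa1, the activator of the HSP90 ATPase, had 71.7, 60.3 and 59.5 CPM in WT and 46.9, 78.6 and 47.1 CPM in Wfs1-KO retinas. Its log2 fold change moved from -0.15 (SE 0.24, adjusted p = 0.979 by edgeR) to -0.45 (SE 0.14, adjusted p = 0.662) without that library. Stip1 had 243, 207 and 199 CPM in WT and 171, 211 and 166 CPM in Wfs1-KO retinas, and its log2 fold change moved from -0.25 (SE 0.18, adjusted p = 0.979 by edgeR) to -0.37 (SE 0.14, adjusted p = 0.813). In both genes mutant replicates 1 and 3 were below all WT retinas and replicate 2 was not. Chordc1, a zinc-binding HSP90 partner, had 47.4, 69.0 and 47.9 CPM in WT and 42.9, 42.1 and 44.8 CPM in Wfs1-KO retinas. It did not overlap between genotypes, although WT replicate 2 alone carried most of the difference, and the log2 fold change was -0.34 (SE 0.20, adjusted p = 0.979 by edgeR) and -0.14 without that WT retina. Fkbp4 had 322, 266 and 274 CPM in WT and 254, 357 and 249 CPM in Wfs1-KO retinas. The log2 fold change of Fkbp4 was -0.0032 (SE 0.21, adjusted p = 0.999 by edgeR) and -0.20 (SE 0.14, adjusted p = 0.968) without replicate 2. The other co-chaperones, Bag3, Stub1, St13, Ptges3 and Cdc37, ranged from -0.28 for St13 to -0.09 for Bag3 without that library.

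Hsf1, the main transcription factor of the heat-shock response, had 46.6, 33.6 and 37.3 CPM in WT and 34.5, 21.6 and 33.8 CPM in Wfs1-KO retinas. Its ranges overlapped, with a log2 fold change of -0.39 (SE 0.24, adjusted p = 0.979 by edgeR) and -0.21 (SE 0.16, adjusted p = 0.968) without replicate 2. Hsf2 had 0.11 (SE 0.17) with all retinas and 0.03 (SE 0.14) without replicate 2. The 5 members with the 3-unit motif had log2 fold changes without replicate 2 of -0.58 for Hsph1, -0.43 for Hspe1, -0.33 for Chordc1, -0.27 for Hspd1 and 0.01 for Dnajb6. In the same order they had -0.49, 0.50, -0.34, -0.19 and -0.02 with all retinas. Of all 45 members, with or without the motif, 41 were below 0 without replicate 2. Immediate early genes, which neurons induce within minutes of stimulation, were read beside them as a second inducible group. Their summed CPM was 300.6 to 341.7 in WT and 239.2, 297.1 and 269.4 in Wfs1-KO retinas, and 5 of 12 tested, Fos, Egr3, Nr4a1, Nr4a3 and Dusp1, had an unadjusted p under 0.05 by edgeR, all 5 lower in mutant retinas, where 0.566% of all tested genes were. Without replicate 2 it was 7 of 13, all lower, against 2.39%. Their part in the chaperone values was not tested.

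The values of Wfs1-KO replicate 2 went with exon length. Across the 45 members Spearman's rho between summed exon length and the log2 ratio to the WT mean was -0.40 in replicate 2, against 0.14 in replicate 1 and 0.27 in replicate 3. All points of a retina share 1 library, and over all 18547 tested genes the values were -0.37, 0.18 and 0.20. In replicate 2 the 10 shortest members, of 774 to 2053 bases, had a median log2 ratio of 0.26 and 8 lay above the WT mean, while the 10 longest, of 3685 to 9618 bases, had a median of -0.36 and 1 lay above it. In replicates 1 and 3 the medians were -0.20 and -0.24 for the short and -0.12 and -0.16 for the long members. Hspe1 with 774 bases and Hspb1 with 1031 bases were the shortest members and had the highest ratios in replicate 2, but Hsp90aa1, the next highest, has 3381 bases, and Cdc37, with 7851 bases, was 1.64 times its WT mean.

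**Figure D5:**
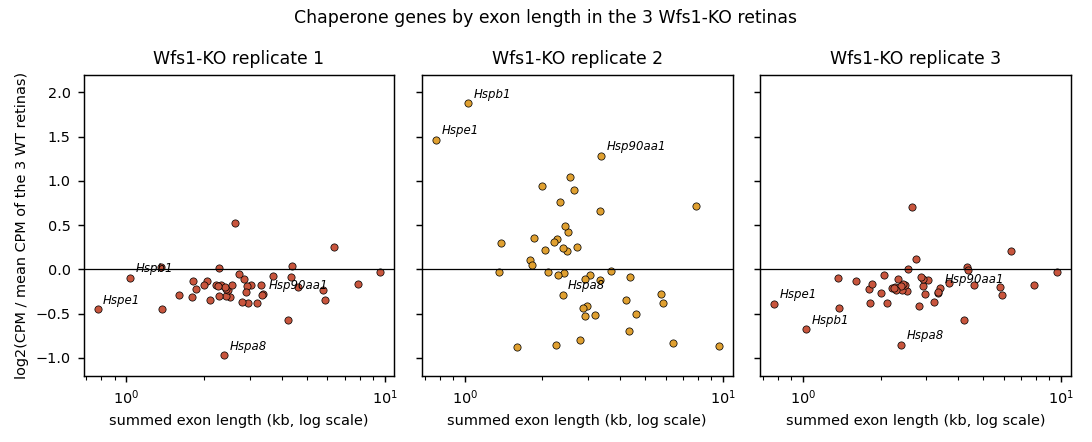
Log2 of the CPM over the WT mean for the 45 genes in each Wfs1-KO retina, against summed exon length in kb on a log axis. In replicate 2 the short genes Hspb1 and Hspe1 lie highest and 9 of the 10 longest genes lie below 0 (rho -0.40), while in replicates 1 and 3 most genes lie slightly below 0 at all lengths.

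The same reading was made for 75 further genes of the chaperone system, such as other J-domain proteins, exchange factors, prefoldin subunits and mitochondrial proteases. Of these, 69 were tested. By edgeR with all 6 retinas, 0 had an unadjusted p under 0.05 in either direction, against 2.81% of all tested genes. A log2 fold change below 0 was found for 35 of 69 (50.7%) with all retinas, against 47.2% of all tested genes. Without replicate 2 it was 54 of 69 (78.3%) against 50.1%, and the medians were -0.0032 and -0.10. In the latter fit 3 were lower at an unadjusted p under 0.05, against 2.39% of all tested genes, and 0 were higher, against 2.80%. Among them were Dnaja4, an HSP40, with -0.49 (SE 0.16) and the small HSP Cryab with -0.62 (SE 0.15). Their adjusted p-values were 0.681 and 0.347 by edgeR and 0.375 and 0.0454 by DESeq2, so that Cryab passed the threshold with DESeq2. Cryab had 39.7, 32.5 and 35.2 CPM in WT and 24.5, 71.5 and 22.3 CPM in Wfs1-KO retinas. For Cryab, replicate 2 was the highest of the 6 retinas and the other mutant retinas were the lowest. Members with that order included Hsp90aa1, Hsp90ab1, Hspe1, Ahsa1, Fkbp4 and Cct5, and replicate 2 was the highest for 38.4% of all tested genes. Dnaja4 had 25.8, 23.4 and 28.5 CPM in WT and 19.7, 4.48 and 17.3 CPM in Wfs1-KO retinas, so that replicate 2 was the lowest. All 10 tested prefoldin and chaperonin cofactor genes were below 0 without replicate 2, with a median of -0.18, against 3 of 10 with all retinas.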

How the data were processed

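Retinal RNA of 3 WT and 3 Wfs1-KO mice was sequenced, and the study describes 3 different mice per group. After trimming, reads were aligned to mm10 with STAR and assigned to the exons of genes with featureCounts, and the deposited values are the resulting raw counts. The submitters' processing notes give Trimmomatic 0.39, STAR 2.5.3a and featureCounts 1.6.4, while the methods give other versions of the first pair. The RNA kit also differs between the labels and the methods. Columns were matched to samples by name, with C read as control and W as Wfs1. A further 2 columns of per-sample values were named in the same way, with C and with W. Their replicate number fits no sample here, and they were left aside.

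Genotypes were compared on the counts of all genes with edgeR 4.0.16 (quasi-likelihood test, TMM, filterByExpr, R 4.3.3), with Benjamini-Hochberg adjustment over all tested genes. Standard errors are the absolute log2 fold change divided by the square root of F. The script was tested on simulated data. CPM use TMM-scaled library sizes, and RPKM divide these by summed exon length. Alternatives were DESeq2 1.42.0, limma-voom 3.58.1, other scalings and filters, a replicate block, each retina left out, and DESeq2 without Wfs1-KO replicate 2. The standard errors include the spread between retinas as well as counting error.

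The members and gene lists were chosen with earlier results of these data known. Genes given retina by retina were the most abundant member of each role by RPKM, members with an unadjusted p under 0.05 with all retinas or without Wfs1-KO replicate 2, members past the threshold in DESeq2, members whose genotypes did not overlap, and Hspa1a, Hspa1b and Hsf1, which gave 20. Other genes of the pathway are given by counts, except Dnaja4 and Cryab, which were named after their values were seen, as were Hspb1, Tecta and the immediate early genes. The values of 1 other pathway gene are not reported here. The sums without Hspa8 were added after the data were seen. Promoter windows come from RefSeq (GRCm38.p6) and shared 50-base words from GENCODE M21 transcripts, and windows of more than 1 start were all searched. No libraries were duplicates. Same-numbered WT and Wfs1-KO retinas had correlations of deviations of -0.234, -0.111 and 0.078. Differently numbered ones had -0.239 to 0.272, so these values cannot decide whether the numbers pair the retinas.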

Additional observations from a re-analysis of the deposited data

How the results depend on the processing

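Of 280 values of the 20 named genes under 14 alternatives, 255 kept their direction and side of the threshold, 22 reversed and 3 passed it. Over all genes, 52 passed the adjusted threshold with DESeq2, 9 without a low-count filter, 94 with DESeq2 and no Wfs1-KO replicate 2, and 0 to 24 with 1 retina left out, against 2. Of the members, 0 to 1 passed with 1 retina left out, the 1 being Hspa8 without Wfs1-KO replicate 2, and 2 (Hspa8 and Hsph1) with DESeq2 without that retina. Members with an unadjusted p under 0.05 numbered 1 to 9 with 1 retina left out. They numbered 1 without Wfs1-KO replicate 1 or 3, 3 without WT replicate 1 or 3 and 6 without WT replicate 2. Without Wfs1-KO replicate 2 they numbered 9, both by edgeR and with DESeq2. The median of the members was -0.21 to -0.046 with 1 retina left out and -0.21 with DESeq2 and no Wfs1-KO replicate 2. Members below 0 numbered 26 to 41 with 1 retina left out. They numbered 29 with upper-quartile scaling, where the median over all tested genes was 0.040. Among these settings, the share of all tested genes below 0 or at an unadjusted p is given only for edgeR without Wfs1-KO replicate 2.

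With the replicate number as a block, 1 gene passed over all genes, 4 members had an unadjusted p under 0.05, the median was -0.11, and no call of a member changed, although Cct5 reversed to -0.0057. The share of all tested genes at that p is not given for this fit, and whether same-numbered retinas belong together is not known.

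The 22 reversals were in genes with values near 0 or set by Wfs1-KO replicate 2. With DESeq2 and no Wfs1-KO replicate 2, Hsp90aa1 had -0.25, Hspe1 -0.43 and Cct5 -0.20. With upper-quartile scaling Hsp90ab1 had 0.018 and Fkbp4 0.019, and with at least 10 counts in every retina 0.013 and 0.015. Cct5 had -0.0073 with limma-voom and -0.025 without a low-count filter. With 1 retina left out, Hsp90aa1 ranged from -0.25 to 0.72, Hsp90ab1 from -0.29 to 0.12, Hspb6 from -0.12 to 0.039, Hspe1 from -0.43 to 0.81, Cct5 from -0.20 to 0.11 and Fkbp4 from -0.20 to 0.086. Hspa8 ranged from -0.92 to -0.54 and Hsph1 from -0.58 to -0.45, with adjusted p from 0.0152 and 0.291 up to 1.00 by edgeR. The cause was not tested.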
